A study of Mus musculus with 11 samples.

Results

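The genes described here encode the coats, tethers and sorting machinery that move membrane between the trans-Golgi, endosomes, lysosomes and the cell surface. They were chosen by name: the exocyst subunits (Exoc1 to Exoc8), the Vps genes, the subunits of the adaptor complexes AP-1 to AP-4 whose symbols fit the pattern, the numbered sorting nexins (Snx), and Eea1, Asap1, Asap2, Picalm and Pacsin2. A gene also needed at least 1 splicing event with 10 or more reads in every library. This left 90 of 96 matching names, out of 10472 genes with such an event. Just inside the limit were Ap2m1, Ap1s3 and Snx29, whose best event had 10, 12 and 18 reads in its shallowest library. Just outside were Snx20, Vps37d and Snx33, with 7, 6 and 4 reads. Snx22, Snx31 and Ap1m2 had 0. The name rule takes in Vps72, which encodes a chromatin protein, and misses the alpha subunits of AP-2. The level of Vps24 is listed under its other symbol, Chmp3.

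Messenger RNA was sequenced from Neuro-2A (N2A) cells, a line derived from a mouse neuroblastoma, harvested 48 h after siRNA pools had been transfected. There were 2 libraries each of Fubp1 knockdown, Khsrp (also called Fubp2) knockdown, knockdown of both genes together (the double knockdown) and Rbm38 knockdown. Cells given non-targeting pools (siNT, 3 libraries) were the control. The series' design text calls the replicates biological; all groups are the same cell line, so their spread says nothing of other lines or of tissue.

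Adaptor complexes and clathrin-binding proteins such as Picalm select cargo and curve the membrane. Tethers such as the exocyst, GARP, HOPS and CORVET hold a vesicle at its target, and retromer and many sorting nexins return cargo from endosomes. Several of these genes carry microexons, very short exons spliced mainly in neurons. Fubp1 and Khsrp belong to 1 family of KH-domain proteins that bind RNA and single-stranded DNA, while Rbm38 binds RNA through an RRM domain.

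In the authors' deposited table, which gives 1 value per group, Fubp1 stood at 27.89 RPKM in Fubp1 knockdown, 19.82 in the double knockdown and 180.07 in siNT. Khsrp stood at 8.06 RPKM in Khsrp knockdown, 6.77 in the double knockdown and 47.03 in siNT in the authors' deposited table. Rbm38 stood at 4.03 RPKM in Rbm38 knockdown and 34.47 in siNT there, and Khsrp was also lower in Rbm38 knockdown than in siNT (33.8 RPKM, with a log2 fold change of -0.70 at FDR 0.0243). Of 12 sympathoadrenal markers 11 reached 1 RPKM in siNT, as did all 4 neuronal markers. The summed sympathoadrenal level was 890, 789, 480 and 805 RPKM in Fubp1, Khsrp, double and Rbm38 knockdown, against 865 RPKM in siNT. Whether that lower sum in the double knockdown had a part in the results below was not tested. Markers of glia, leukocytes, endothelium, fibroblasts and epithelium summed to at most 3.3 RPKM per list in any group. The titles number the libraries: siNT A, siNT B and both Fubp1 libraries have numbers 1 to 4, and siNT C and all others have 8 to 27. What the numbers stand for is not stated, and counts with a term for these number sets are given beside the results. Only siNT has libraries in both sets. With this term Fubp1 knockdown is therefore compared with siNT A and B, and the other knockdowns with siNT C alone. The median number of reads behind a tested event was 99 to 221 per library, and it was 133 and 99 in the double knockdown libraries.

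The measure of exon inclusion is the PSI (percent spliced in), which counts the reads that include an exon among all that span it. Of 634 tested events in 82 of the genes, 250 were cassette exons, 14 were microexons of up to 27 nt in 13 genes, 271 were introns and 99 were alternative splice sites. The microexons that could be placed in the annotation and whose inclusion the results turn on are printed because they show how small the affected pieces of message are. Their sequences come from GENCODE vM21 transcripts (GRCm38), 5′ to 3′ along the message, with 30 nt of the neighbouring exons in lower case where the annotation fixes them and the microexon in capitals. For Asap1 the annotation has 2 versions of the flanks and 1 is shown. The Vps29 microexon, without flanks, is printed because it did not follow the others.
Picalm 24-nt microexon, chr7:90194273-90194296, plus strand: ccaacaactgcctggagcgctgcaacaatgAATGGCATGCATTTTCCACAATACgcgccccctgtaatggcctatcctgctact
Snx14 27-nt microexon, chr9:88400723-88400749, minus strand: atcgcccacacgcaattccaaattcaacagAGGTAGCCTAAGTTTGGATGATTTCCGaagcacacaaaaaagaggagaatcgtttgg
Ap1s2 9-nt microexon, chrX:163931363-163931371, plus strand: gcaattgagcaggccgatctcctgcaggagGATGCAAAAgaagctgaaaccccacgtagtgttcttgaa
Asap1 9-nt microexon, chr15:64153844-64153852, minus strand: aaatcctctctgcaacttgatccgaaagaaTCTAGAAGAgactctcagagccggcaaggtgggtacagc
Pacsin2 6-nt microexon, chr15:83383623-83383628, minus strand: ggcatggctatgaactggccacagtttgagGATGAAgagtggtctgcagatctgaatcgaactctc
Vps29 12-nt microexon, chr5:122356794-122356805, plus strand: GCTGGGCACAGA

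In the double knockdown 8 of the 14 microexons were less included than in siNT and 0 were more included, at a Benjamini-Hochberg adjusted p under 0.05 in limma and a PSI difference of at least 10 points. Among all tested microexons 24.3% were called lower in that comparison. The median PSI difference was -18.19 points over the 14 and -2.10 points over all 478 tested microexons. The 8 were in Picalm, Snx14, Asap1, Asap2, Ap1s2, Ap1b1, Pacsin2 and Eea1, and 7 of the 8 have a length that is a multiple of 3, the exception being the 4-nt microexon of Asap2. Picalm, Asap1, Asap2, Pacsin2 and Eea1 were chosen singly and not by a name pattern. Each of them had 1 tested microexon, and all of these were called lower. Among the genes taken by pattern, only Snx14, Ap1s2 and Ap1b1 had a microexon called lower. The counts and the median over the 14 therefore lean on the singly chosen genes.

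**Figure D1:**
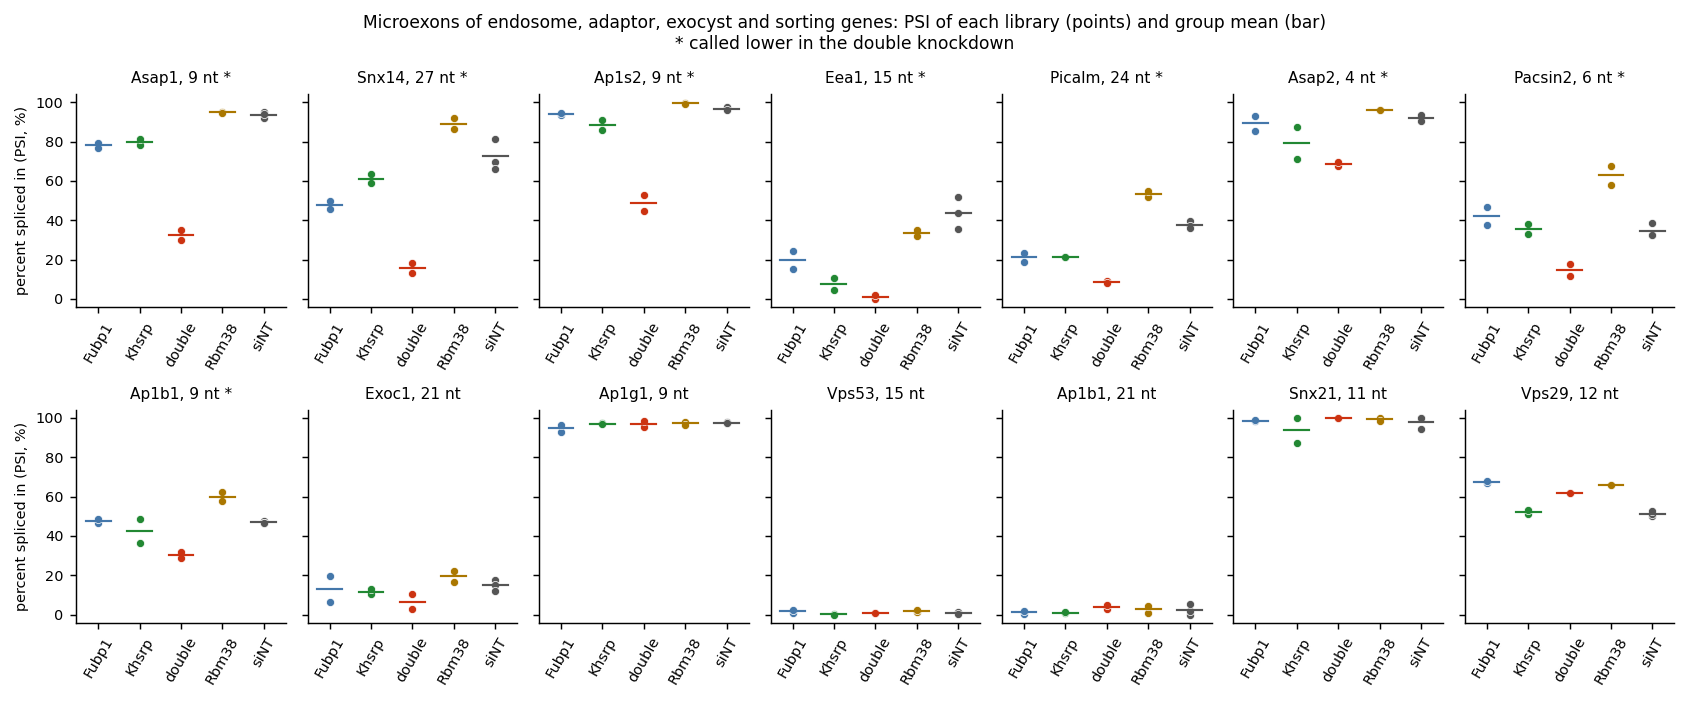
PSI (percent, vertical axes from 0 to 100) of the 14 tested microexons, with 1 point per library, grouped as Fubp1, Khsrp, double and Rbm38 knockdown and siNT; an asterisk marks a microexon called lower in the double knockdown. The double knockdown libraries lie below every siNT library in 9 of the 14 panels (47.5% of all tested microexons), and the Rbm38 libraries lie above every siNT library in 8 (36.4% of all tested microexons).

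Asap1 and Asap2 encode GTPase-activating proteins for Arf GTPases, which control coat assembly. The 9-nt microexon of Asap1 had a PSI of 29.86 and 35.11 in the double knockdown, against 91.82, 95.24 and 94.09 in siNT. The difference was -61.23 points (log2 odds -4.96 ± 0.36 SE, limma adjusted p = 1.05e-05). It was at 79.28 and 76.90 in Fubp1 knockdown and at 78.05 and 81.49 in Khsrp knockdown, below every siNT library and far above the double knockdown. The double knockdown was lower than Fubp1 knockdown by a difference of -45.60 points (limma adjusted p = 0.0019) and lower than Khsrp knockdown by one of -47.28 points (limma adjusted p = 6.87e-04). The 4-nt microexon of Asap2 had a PSI of 67.33 and 69.52 in the double knockdown, against 92.40, 93.31 and 90.36 in siNT. The groups did not overlap and differed by -23.60 points (limma adjusted p = 0.00506).

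Picalm, which binds clathrin, AP-2 and the plasma membrane during endocytosis, had a 24-nt microexon with intermediate inclusion. Its PSI was 23.14 and 18.94 in Fubp1 knockdown, 21.53 and 21.28 in Khsrp knockdown, 8.93 and 8.07 under double knockdown and 51.57 and 54.78 in Rbm38 knockdown, against 39.75, 36.82 and 36.26 in siNT. No group overlapped siNT: both single knockdowns lay below it, the double knockdown lay lowest and Rbm38 knockdown lay above it. The double knockdown differed from siNT by -29.11 points (log2 odds -2.69 ± 0.24 SE, limma adjusted p = 3.10e-05). It also differed from Fubp1 knockdown by -12.54 points (limma adjusted p = 0.009) and from Khsrp knockdown by -12.90 points (limma adjusted p = 0.00482). The Khsrp difference of -16.20 points and the Rbm38 difference of 15.57 points did not pass the limma test against siNT (adjusted p = 0.306 and 0.325).

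Snx14, a sorting nexin with an RGS domain, had a 27-nt microexon whose PSI was 13.09 and 18.44 in the double knockdown, against 69.70, 81.34 and 66.27 in siNT. Its PSI was 45.66 and 49.54 in Fubp1 knockdown and 58.69 and 63.39 in Khsrp knockdown, so that both double knockdown libraries lay below all single knockdown libraries. The difference from siNT was -56.67 points (log2 odds -3.88 ± 0.42 SE, limma adjusted p = 1.10e-04) in the double knockdown. In Rbm38 knockdown the PSI was 86.46 and 91.72, above every siNT library, with a difference of 16.65 points that did not pass the limma test (adjusted p = 0.342).

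AP-1 is the clathrin adaptor of the trans-Golgi and endosomes, and Ap1s2 and Ap1b1 encode its sigma and beta subunits. The 9-nt microexon of Ap1s2 had a PSI of 52.86 and 44.82 in the double knockdown, against 96.29, 97.61 and 96.08 in siNT. It differed by -47.82 points from siNT (log2 odds -4.94 ± 0.40 SE, limma adjusted p = 1.65e-05) and was at 93.33 and 94.42 in Fubp1 knockdown and 91.08 and 85.81 in Khsrp knockdown. The 9-nt microexon of Ap1b1 had a PSI of 32.06 and 28.88 in the double knockdown, against 47.79, 46.67 and 46.78 in siNT, a difference of -16.61 points (limma adjusted p = 0.0348). Its groups did not overlap, and in Fubp1 knockdown (46.67 and 48.73) it was at the siNT level. The 9-nt microexon of Ap1g1 and the 21-nt microexon of Ap1b1 had mean differences of at most 2.88 points from siNT in any knockdown and were not called.

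Pacsin2 encodes an F-BAR protein that bends membrane. Its 6-nt microexon had a PSI of 46.92 and 37.71 in Fubp1 knockdown, 38.10 and 32.90 in Khsrp knockdown, 17.86 and 11.77 under double knockdown and 67.42 and 58.12 in Rbm38 knockdown, against 38.70, 32.65 and 32.41 in siNT. Only the double knockdown and Rbm38 knockdown did not overlap siNT, below it and above it. The double knockdown differed from siNT by -19.77 points (limma adjusted p = 0.00484), and the Rbm38 difference of 28.18 points did not pass the limma test (adjusted p = 0.133). Eea1 encodes a tether of early endosomes that binds Rab5. Its 15-nt microexon had a PSI of 24.32 and 15.30 in Fubp1 knockdown, 10.59 and 4.76 in Khsrp knockdown, 0.00 and 2.09 under double knockdown and 35.06 and 31.95 in Rbm38 knockdown, against 52.01, 43.85 and 35.62 in siNT. All 4 knockdowns lay below every siNT library, and the double knockdown differed by -42.78 points (limma adjusted p = 3.82e-04). The differences of -24.02 points in Fubp1 knockdown and -36.15 points in Khsrp knockdown did not pass the limma test (adjusted p = 0.114 and 0.24).

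The calls of Ap1b1, Asap2 and Pacsin2 were lost when a single library was left out. The call of Ap1b1 did not pass in limma without double knockdown A (adjusted p = 0.122) or B (0.208), nor without siNT A (0.0844), B (0.0773) or C (0.0578). The call of Asap2 did not pass without double knockdown A (limma adjusted p = 0.0543), and that of Pacsin2 without double knockdown B (limma adjusted p = 0.0792). With the term for library number sets, the limma adjusted p of the 3 was 0.186, 0.122 and 0.0825, and the other 5 stayed called. The call of Eea1 did not pass when events of any mean PSI were tested (limma adjusted p = 0.0621).

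The 12-nt microexon of Vps29, a core subunit of retromer, was covered by at least 3263 reads in each library and had a higher mean than siNT in every knockdown. Its PSI was 67.08 and 67.88 in Fubp1 knockdown, 51.36 and 53.29 in Khsrp knockdown, 61.67 and 61.59 under double knockdown and 65.76 and 65.85 in Rbm38 knockdown, against 50.25, 51.11 and 52.57 in siNT. Fubp1, double and Rbm38 knockdown lay above every siNT library, and Khsrp knockdown overlapped it. None of the differences, 16.17 points in Fubp1, 10.32 points in double and 14.50 points in Rbm38 knockdown, passed the limma test (adjusted p = 0.0908, 0.11 and 0.348). The 21-nt microexon of Exoc1, the Sec3 subunit of the exocyst, averaged 6.62 ± 5.61 in the double knockdown and 14.97 ± 2.84 in siNT (SD, n = 2 and 3) and was not called (limma adjusted p = 0.141). The 15-nt microexon of Vps53 was at most 2.60 in any library and the 11-nt microexon of Snx21 at least 87.39, and neither was called.

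Rbm38 knockdown, unlike the double knockdown, had mostly higher microexon inclusion than siNT by the means. It had the higher mean in 12 of 14 against siNT, where 74.3% of all tested microexons did, but 0 of the 14 were called in that comparison in limma. The median difference was 3.29 points over the 14 and 1.95 points over all 478 tested microexons. Set against the double knockdown directly, 8 of the 14 were called higher in Rbm38 knockdown, where 29.5% of all tested microexons were. These were the same 8 that were lower in the double knockdown than in siNT. Both comparisons use the same double knockdown libraries, so the 8 calls do not by themselves show a rise in Rbm38 knockdown. The largest difference between Rbm38 and double knockdown was in Snx14, 73.32 points (log2 odds 5.45 ± 0.48 SE, limma adjusted p = 3.50e-05). For Pacsin2 the difference was 47.96 points (limma adjusted p = 9.14e-05), and for Picalm it was 44.68 points (limma adjusted p = 1.27e-05).

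Over all 264 tested cassette exons and microexons, in 71 of the genes, the double knockdown had 61 exons in 25 genes called lower than siNT and 4 called higher. Of all 21319 tested exons 11.4% were called lower and 3.46% higher in that comparison. The median PSI difference was -3.52 points over the 264 and -0.54 points over all tested exons. At an unadjusted p under 0.05 in limma, 146 of the 264 differed, beside 39.4% of all tested exons. With no filter on mean PSI, 52 of 1313 exons of these genes were called lower and 3 higher. Over all genes 1922 of 98239 exons were then called lower and 490 higher. Between them Vps13a and Exoc5 held 20 of the 61, and without these genes 41 of 237 exons were called lower and 3 higher. The term for library number sets leaves siNT C as the only control of the double knockdown. With the term for library number sets 25 were called lower and 1 higher, and leaving out 1 library at a time gave 48 to 60 called in both directions. Of the 61 lower exons 38 kept their call without each library in turn, and 22, in 13 genes, also kept it with that term. The authors' deposited table called 110 of the 264 in the double knockdown, 99 of them with a lower PSI, against 27.7% of all tested exons.

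**Figure D2:**
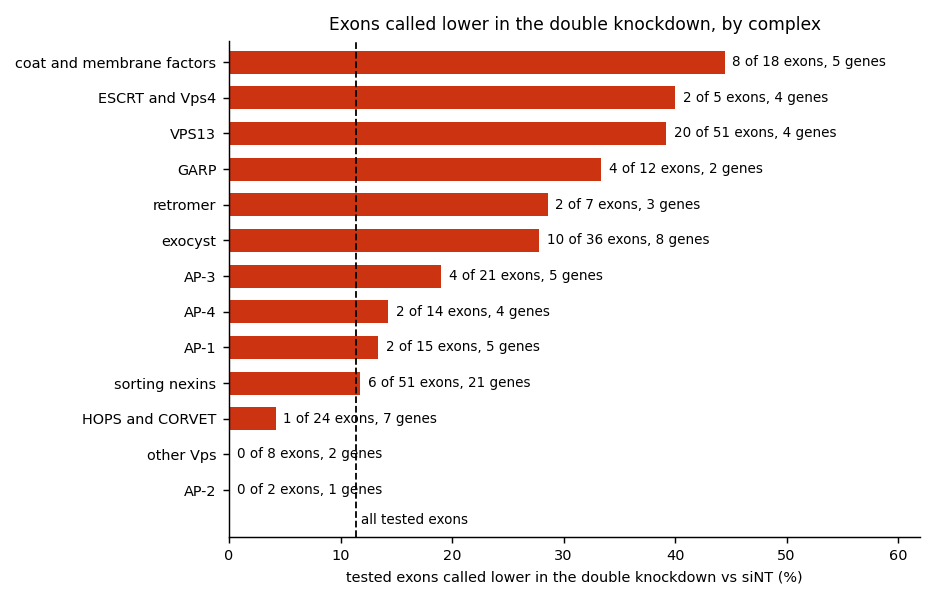
Share of tested exons (percent, horizontal axis from 0) called lower in the double knockdown than in siNT, with 1 bar per complex or gene group; the dashed line is the 11.4% of all tested exons. The VPS13 and the coat and membrane groups, with 20 of 51 and 8 of 18 exons, stand well to the right of the line, and HOPS and CORVET, with 1 of 24, to the left of it. Vps13a alone holds 13 of the 20 VPS13 exons.

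By group, 20 of 51 exons of the VPS13 lipid transfer proteins were lower, 10 of 36 of the exocyst, 4 of 12 of GARP and 8 of 18 of the coat and membrane factors (Picalm, Pacsin2, Eea1, Asap1 and Asap2). The share over all tested exons was 11.4%. The coat and membrane factors are the genes chosen singly and not by a name pattern. Single genes held most of the lower exons of 3 groups: Vps13a 13 of the 20, Exoc5 7 of the 10 and Vps54 all 4 of GARP. Smaller shares were lower in AP-1 (2 of 15), AP-3 (4 of 21), AP-4 (2 of 14), HOPS and CORVET (1 of 24) and the sorting nexins (6 of 51). ESCRT had 2 of 5 and retromer 2 of 7, while AP-2 had 0 of 2 and the remaining Vps genes had 0 of 8. No test of 1 group against another was made.

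Vps13a, a bridge-like protein that carries lipids between membranes, had 13 of 18 tested exons lower in the double knockdown. The 161-nt coding exon at chr19:16676046-16676206 had a PSI of 37.25 and 20.93 in the double knockdown, against 94.57, 96.75 and 95.59 in siNT. The groups were far apart and differed by -66.55 points (log2 odds -5.68 ± 1.00 SE, limma adjusted p = 0.00286). In Fubp1 knockdown the same exon was at 76.84 and 72.28, below every siNT library, and its difference of -21.08 points did not pass the limma test (adjusted p = 0.153). Another exon, of 60 nt, had a PSI of 43.97 and 38.20 in the double knockdown and 100.00 in every siNT library, a difference of -58.92 points (limma adjusted p = 0.00276). The 79-nt, 139-nt and 102-nt exons differed by -39.76, -35.26 and -32.57 points (limma adjusted p = 7.19e-04, 0.00244 and 0.00231). With the term for library number sets the 161-nt and 79-nt exons stayed called and the other 11 did not; the limma adjusted p of the 60-nt, 139-nt and 102-nt exons was 0.121, 0.107 and 0.155. The named Vps13a exons had between 21 and 46 reads in their shallowest library, fewer than most other named exons.

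The other VPS13 genes had fewer lower exons: 3 of 12 in Vps13b, 3 of 10 in Vps13c and 1 of 11 in Vps13d. The 121-nt exon of Vps13b had a PSI of 70.79 and 52.34 in the double knockdown, against 94.00, 96.18 and 93.14 in siNT, without overlap. Its difference of -32.87 points (limma adjusted p = 0.0149) was not called without double knockdown B (adjusted p = 0.13), without siNT B (0.055), when events of any mean PSI were tested (0.0756) or with the library number sets (0.203). The 3 exons of Vps13c differed by -10.35 to -12.22 points and, like those of Vps13b, were not called with the library number sets.

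**Figure D3:**
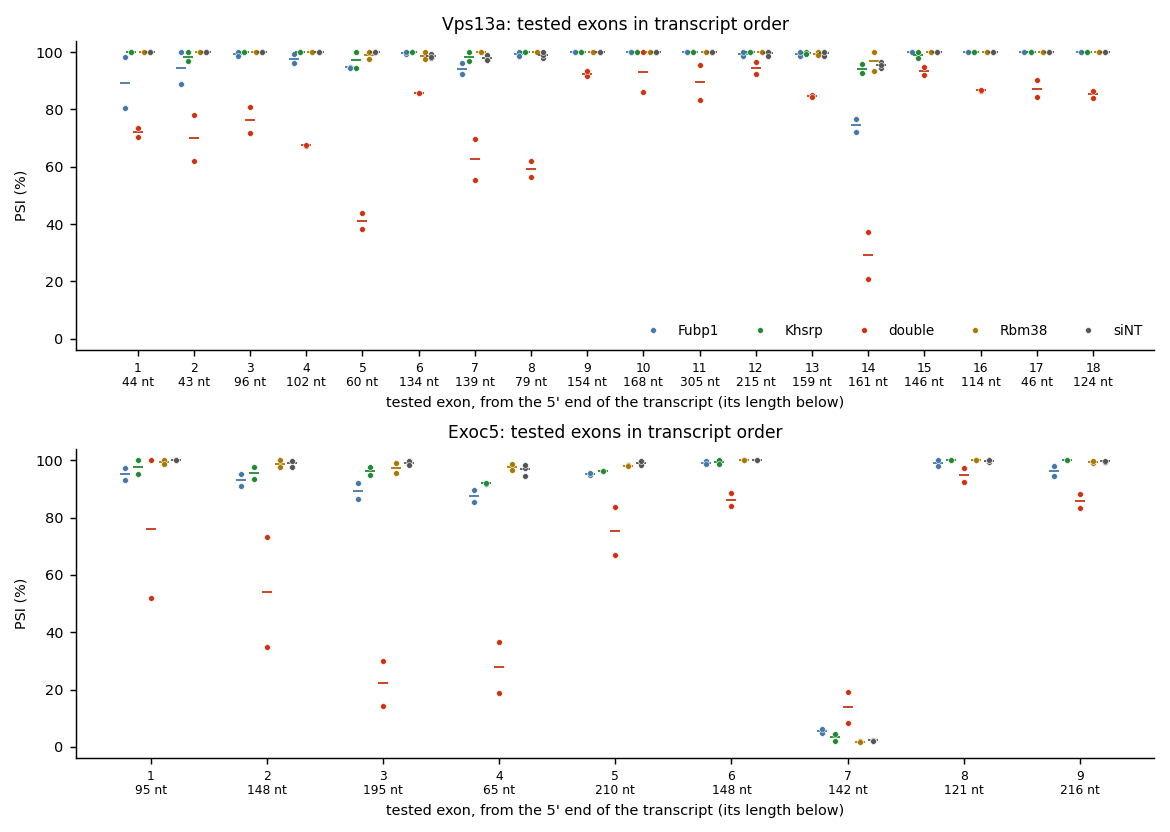
PSI (percent, vertical axis) of every tested exon of Vps13a and Exoc5 in transcript order (horizontal axis), with a point for each library and a dash for each group mean, for Fubp1, Khsrp, double and Rbm38 knockdown and siNT. In the double knockdown the 161-nt exon of Vps13a and the neighbouring 195-nt and 65-nt exons of Exoc5 lie far below siNT, which stays near 100 for the same exons.

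Exoc5, the Sec10 subunit of the exocyst, had 7 of 9 tested exons lower and 1 higher in the double knockdown; 4 of the 7 stayed called with the library number sets. Its 195-nt coding exon at chr14:49048704-49048898 had the largest difference among all the genes described, with a PSI of 14.40 and 30.01 in the double knockdown, against 98.92, 99.70 and 98.29 in siNT. The difference was -76.77 points (log2 odds -8.91 ± 0.86 SE, limma adjusted p = 5.19e-05), and neither double knockdown library came near a siNT library. Fubp1 knockdown had 86.42 and 92.21, Khsrp knockdown 97.57 and 95.02 and Rbm38 knockdown 99.19 and 95.75. The double knockdown was lower than Fubp1 knockdown (difference -67.11 points, limma adjusted p = 0.00509) and lower than Khsrp knockdown (difference -74.09 points, limma adjusted p = 8.37e-04).

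The next tested exon of Exoc5, of 65 nt at chr14:49042485-49042549, had a PSI of 18.79 and 36.76 in the double knockdown, against 97.32, 98.55 and 94.69 in siNT. It differed by -69.08 points (limma adjusted p = 3.35e-05). The 148-nt tested exon before the 195-nt exon had a PSI of 34.89 and 73.19 in the double knockdown, against 99.63, 99.67 and 97.71 in siNT, so the replicates of the double knockdown differed widely but did not overlap siNT. Its difference of -44.96 points (limma adjusted p = 0.00117) did not pass with the library number sets (adjusted p = 0.179). A 95-nt exon was called although double knockdown B was at 100.00, the siNT level. Without double knockdown A, at 51.95, it differed by 0.00 points, and it was not called without any 1 of the siNT libraries. A 142-nt exon was more included, at 8.5 and 19.30 in the double knockdown, against 2.51, 2.10 and 2.20 in siNT (limma adjusted p = 0.00357), and was not called without double knockdown B (difference 6.23 points) or with the library number sets (adjusted p = 0.0631).

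In Exoc1 the 150-nt exon had a PSI of 70.12 and 59.65 in the double knockdown, against 99.10, 100.00 and 100.00 in siNT. The groups did not overlap and differed by -34.82 points (limma adjusted p = 0.0011; 0.074 with the library number sets). The 386-nt, 127-nt, 79-nt and 35-nt exons of Vps54, a subunit of the GARP tether at the trans-Golgi, were all lower in the double knockdown. The 79-nt exon at chr11:21268785-21268863 had a PSI of 56.66 and 59.45 in the double knockdown, against 97.19, 97.65 and 98.98 in siNT, and differed by -39.88 points (limma adjusted p = 8.30e-05). With the library number sets it stayed called and the other 3 did not.

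Among coat genes, the 150-nt coding exon of Picalm at chr7:90182219-90182368 was covered by at least 1375 reads in each library. Its PSI was 78.64 and 74.67 in Fubp1 knockdown, 91.35 and 91.69 in Khsrp knockdown, 39.39 and 38.68 under double knockdown and 98.22 and 97.29 in Rbm38 knockdown, against 97.59, 96.62 and 96.71 in siNT. Rbm38 knockdown overlapped siNT, and the other knockdowns lay below it in the order Khsrp, Fubp1, double. The double knockdown differed from siNT by -57.94 points (log2 odds -5.65 ± 0.31 SE, limma adjusted p = 3.09e-06), from Fubp1 knockdown by -37.62 points (limma adjusted p = 0.00375) and from Khsrp knockdown by -52.48 points (limma adjusted p = 1.07e-04). The 195-nt exon of Eea1 had a PSI of 67.93 and 63.69 in the double knockdown, against 100.00, 98.23 and 98.92 in siNT, a difference of -33.24 points (limma adjusted p = 0.00181; 0.122 with the library number sets).

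Ap3b1, the beta subunit of the AP-3 coat that supplies lysosomes and related organelles, had 3 of 11 exons lower. Its 131-nt exon at chr13:94472799-94472929 had a PSI of 80.23 and 76.78 in Fubp1 knockdown, 53.79 and 45.29 under double knockdown and 92.61, 95.52 and 92.33 in siNT. Fubp1 knockdown lay between the double knockdown and siNT without overlap, and the double knockdown differed from siNT by -43.95 points (limma adjusted p = 5.62e-05) and from Fubp1 knockdown by -28.96 points (limma adjusted p = 0.0274). The preceding tested exon, of 187 nt, was at 59.85 and 53.41 in the double knockdown, against 94.00, 96.52 and 91.50 in siNT (difference -37.38 points, limma adjusted p = 2.05e-04).

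Of the sorting nexins, Snx13, a relative of Snx14, had a 113-nt exon with a PSI of 30.69 and 39.13 in the double knockdown, against 96.47, 97.13 and 93.37 in siNT. The difference was -60.75 points (limma adjusted p = 4.61e-05), and the next tested exon, of 103 nt, differed by -46.56 points (limma adjusted p = 1.73e-04). Snx2, a nexin with a BAR domain that works with retromer, had a 164-nt exon at 67.00 and 62.54 in the double knockdown, against 99.72, 99.69 and 98.69 in siNT. Its groups did not overlap and differed by -34.60 points (limma adjusted p = 2.00e-05). In retromer, the 76-nt exon of Vps26a at chr10:62471060-62471135 had a PSI of 62.66 and 63.50 in the double knockdown, against 93.73, 93.28 and 94.58 in siNT. The difference was -30.78 points (limma adjusted p = 3.45e-05), and Fubp1 knockdown, at 87.11 and 84.77, lay in between.

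Some exons are named because their groups held few calls, and were chosen after their values were seen. In retromer the second lower exon was the 157-nt exon of Vps26a, at 68.80 and 74.03 in the double knockdown, against 96.40, 95.80 and 97.11 in siNT. In HOPS and CORVET the lower exon was the 33-nt exon of Vps39, at 4.29 and 1.98 in the double knockdown, against 22.52, 23.92 and 21.38 in siNT (difference -19.47 points, limma adjusted p = 2.23e-04). Both kept their calls without each library and with the library number sets. In ESCRT, the 101-nt and 115-nt exons of Vps37a differed by -11.53 and -10.53 points and were not called with the library number sets (limma adjusted p = 0.174 and 0.0784). The 115-nt exon was not called without double knockdown B (difference -7.85 points).

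The 4 exons called higher in the double knockdown were those of Exoc5 (142 nt, above), Snx10, Snx11 and Ap1g2. The 115-nt exon of Snx10 had a PSI of 17.35 and 18.23 in the double knockdown, against 7.02, 5.53 and 6.68 in siNT (difference 11.38 points, limma adjusted p = 0.00141), and it was the only 1 of the 4 that stayed called without each library and with the library number sets. The 60-nt untranslated exon of Snx11 differed by 13.49 points (limma adjusted p = 0.0495) and was not called without any 1 of the 5 libraries (limma adjusted p = 0.072 to 0.22). The 77-nt exon of Ap1g2 differed by 11.85 points (limma adjusted p = 0.0313) and was not called without double knockdown A (adjusted p = 0.136) or B (0.223), siNT A (0.0664) or siNT C (0.061).

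**Figure D4:**
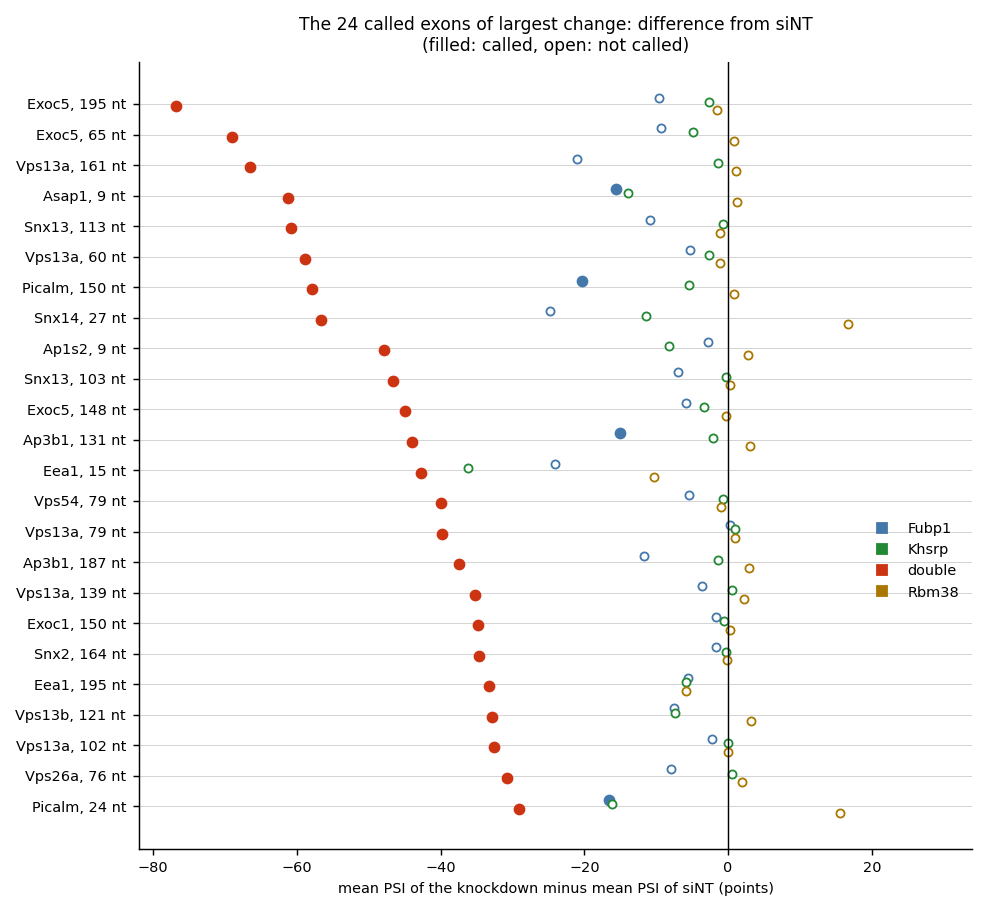
PSI difference from siNT (percentage points, horizontal axis) of the 24 exons with the largest called differences, with a marker for each of Fubp1, Khsrp, double and Rbm38 knockdown, filled where called. In the double knockdown the differences run from -76.77 points for the 195-nt exon of Exoc5 down in size along the rows, while most markers of the other knockdowns lie close to 0.

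In Fubp1 knockdown 5 exons were lower than in siNT and 0 were higher, where 0.727% and 0.164% of all tested exons were called. At an unadjusted p under 0.05 in limma, 54 of the 264 differed, beside 18.2% of all tested exons. The 5 were the 150-nt exon and 24-nt microexon of Picalm, the 9-nt microexon of Asap1, the 131-nt exon of Ap3b1 and the 75-nt exon of Vps13d, the last named because of the small count. Their differences were -20.32, -16.57, -15.63, -14.98 and -23.40 points (limma adjusted p = 0.00247, 0.048, 0.027, 0.0409 and 0.0094). The 75-nt exon of Vps13d at chr4:145103614-145103688 had a PSI of 6.36 and 4.29 in Fubp1 knockdown, 24.62 and 15.38 in Khsrp knockdown, 0.72 and 2.70 under double knockdown and 37.31 and 39.06 in Rbm38 knockdown, against 32.48, 25.42 and 28.26 in siNT. It was lowest in both groups with Fubp1 knockdown, whose libraries did not overlap siNT, and highest in Rbm38 knockdown. All 5 were also called in the double knockdown, which shares the siNT libraries, although that of Vps13d was not without double knockdown A (limma adjusted p = 0.0511). Leaving out Fubp1 A or Fubp1 B ended all 5 calls in limma, and 3, 2 and 2 were left without siNT A, B and C. With the library number sets 2 were left. The authors' deposited table called 35 of the 264 exons in Fubp1 knockdown, 33 of them lower, against 9.94% of all tested exons.

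In Khsrp knockdown no exon was called in limma, 0 lower and 0 higher, as over all tested exons (0% and 0%). At an unadjusted p under 0.05 in limma, 22 of the 264 differed, beside 9.99% of all tested exons. Mean PSI was lower than in siNT for 12 of the 14 microexons, beside 67.2% of all tested microexons. Both libraries lay below every siNT library for 7 of the 14, beside 29.9% of all tested microexons. The median difference was -4.62 points over the 14 and -1.19 points over all 478 tested microexons. The authors' deposited table called 12 of the 264 exons in Khsrp knockdown, 11 of them lower, against 4.06% of all tested exons.

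Rbm38 knockdown likewise had 0 exons called lower and 0 higher than siNT in limma, against 0% and 0% of all tested exons. At an unadjusted p under 0.05 in limma, 27 of the 264 differed, beside 10.3% of all tested exons. The authors' deposited table called 8 of the 264 exons in Rbm38 knockdown, all 8 higher, against 4.44% of all tested exons. In the direct comparison with the double knockdown, 5 exons were lower and 54 higher in Rbm38 knockdown, where 3.15% and 10.7% of all tested exons were called. This comparison uses the same double knockdown libraries as the calls of the double knockdown against siNT.

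The double knockdown was also set against each single knockdown. Against Fubp1 knockdown 28 exons were lower and 4 higher in the double knockdown, where 4.68% and 1.37% of all tested exons were called. Against Khsrp knockdown 39 were lower and 2 higher, where 7.58% and 1.69% of all tested exons were. Of the 14 microexons 6 were lower than in Fubp1 knockdown and 5 lower than in Khsrp knockdown, where 12.3% and 12.6% of all tested microexons were. Between Khsrp and Fubp1 knockdown 0 of the 264 exons were called in limma, where 0.136% of all tested exons were called lower and 0.22% higher in Khsrp knockdown. On the log2 odds scale, no member event departed from the sum of the single knockdown effects at an adjusted p under 0.05 in limma (0 of 634, and 0 of all 60137 tested events). With 2 libraries per knockdown and no event of any gene passing, this does not show that the effects add up.

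Introns and alternative splice sites were tested in the same fit. In the double knockdown 6 of 271 introns were lower and 5 higher, beside 1.58% and 0.933% of 26595 introns over all genes. Of 99 alternative splice sites 2 were lower and 2 higher, beside 1.24% and 0.655% of 12223 over all genes. The 2 largest differences were in Vps13a. A 1647-nt intron was retained in 62.79% and 84.00% of reads in the double knockdown, against 7.56%, 14.69% and 12.15% in siNT (difference 61.93 points, limma adjusted p = 2.50e-04). A 7344-nt intron was retained in 46.15% and 77.78% in the double knockdown, against 10.00%, 11.11% and 7.26% in siNT (difference 52.51 points, limma adjusted p = 0.00244). Both stayed called without each library and with the library number sets, on 23 and 16 reads in the shallowest library.

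Introns of Snx32, a nexin with a BAR domain, were retained less. Its 94-nt intron was at 15.79 and 13.76 in the double knockdown, against 76.47, 76.19 and 37.93 in siNT, where siNT C stood apart from the other siNT libraries (difference -48.76 points, limma adjusted p = 0.00234). With the library number sets the difference was -23.16 points and was not called (limma adjusted p = 0.117). The 11508-nt intron of Snx32, the 3548-nt intron of Snx14 and the 1534-nt intron of Snx11 were lower, with differences of -23.18, -23.84 and -22.77 points (limma adjusted p = 0.0405, 0.00785 and 0.0171). The intron of Snx14 was not called without double knockdown B (limma adjusted p = 0.0698), and that of Snx11 was not called without double knockdown A (0.0956) or B (0.115), siNT A (0.0596) or siNT B (0.0527). The 11508-nt intron of Snx32 was not called without any 1 of the 5 libraries (limma adjusted p = 0.0543 to 0.375). With the library number sets none of these 3 introns was called; the limma adjusted p was 0.152 for Snx32, 0.0832 for Snx14 and 0.239 for Snx11, whose difference became -14.79 points.

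The exons lower in the double knockdown were mostly constitutive in siNT. Of the 61, 53 had a mean siNT PSI over 90 and 7 lay between 20 and 80, with a median PSI of 71.4 in the double knockdown and 98 in siNT. Of the other 203 tested exons 148 had a mean siNT PSI over 90 and 42 one under 20. The median siNT PSI of the 203 was also 98. A call of lower needs a minimum fall in PSI, for which exons of low siNT PSI have little or no room. The 42 therefore cannot show a difference between the sets. The median length was 110 nt in the 61 and 109 nt in the 203, and 41% and 42.9% were a multiple of 3. Of the 57 lower exons that matched the annotation 56 were wholly coding, as were 154 of the 172 other matched exons. The median GC content of the 57 was 40.2%, against 46.7% for the other matched exons. Vps13a and Exoc5, with 13 and 7 lower exons, were not set aside in these values.

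Gene levels are given as RPKM, a read count scaled to transcript length and library size, with the log2 fold change and FDR of the authors' deposited table, which has 1 value per group and so no error. The fold changes are the authors' own and are not the ratio of the RPKM values. In these bulk samples fewer cells of a type and less RNA per cell cannot be told apart. In the double knockdown 26 of the 90 genes were lower and 14 higher than in siNT at FDR under 0.05 in the authors' deposited table, where 13.7% and 13.2% of all 23378 tested genes were. All tested genes include some with almost no expression, such as Csf1r and Lum, each at 0.02 RPKM in siNT. The 90 genes had to pass a read minimum, so the shares do not compare genes of like level. This holds for every knockdown and every group of genes below. The exocyst had 6 of 9 genes lower (median log2 fold change -0.41), VPS13 3 of 4 (median -0.97), HOPS and CORVET 3 of 7 and GARP 2 of 3, with 0 higher in each of these groups. The sorting nexins had 5 lower and 8 higher of 26, and the coat and membrane factors had 0 and 0 of 5.

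**Figure D5:**
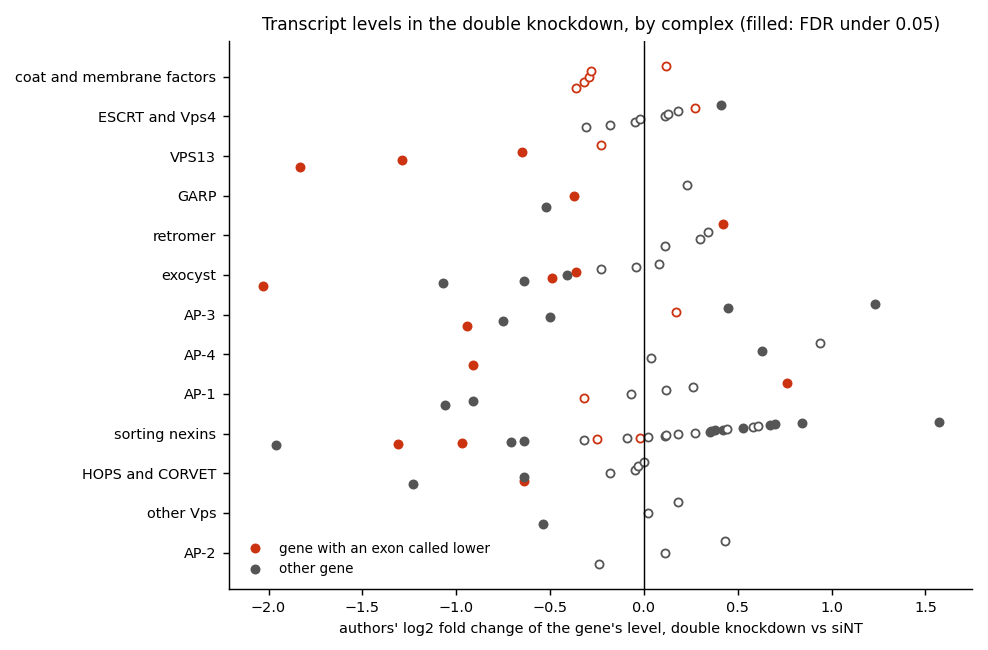
The authors' log2 fold change of each gene's level in the double knockdown against siNT (horizontal axis), with 1 row per complex or gene group, filled points for FDR under 0.05 and red points for genes with an exon called lower. Exoc5, Snx4 and Vps13a lie farthest to the left, at -2.03, -1.96 and -1.83, and Snx32 farthest to the right, at 1.57.

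Exoc5 was at 11.72 RPKM in the double knockdown and 43.2 in siNT by the authors' deposited table (fold change on the log2 scale -2.03, FDR 2.44e-48). Vps13a was at 6.92 RPKM in the double knockdown and 24.15 in siNT there (-1.83, FDR 2.73e-29). These are the 2 genes with the most exons called lower. Snx4, a nexin of endosomal recycling, was at 12.15 RPKM in the double knockdown and 50.09 in siNT in the authors' deposited table (-1.96, FDR 1.04e-32) and had no tested exon. Snx2, Vps13b and Vps8, a subunit of CORVET, were lower with log2 fold changes of -1.31, -1.29 and -1.23 in the authors' deposited table. Snx32 (5.15 RPKM in the double knockdown, 1.62 in siNT) and Ap3m2, the neuronal mu subunit of AP-3 (15.13 and 7.46 RPKM), were higher with log2 fold changes of 1.57 and 1.23 there.

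The level and the exon calls come from the same double knockdown and siNT cells. Of the 25 genes with an exon lower in the double knockdown, 12 were lower and 2 higher in level at FDR under 0.05 in the authors' deposited table, with a median log2 fold change of -0.36. Of the other 65 genes 14 were lower and 12 higher, with a median of 0.11. Where at least 1 of the lower exons had a length that is not a multiple of 3 (14 genes), 10 were lower and 1 higher in level, with a median of -0.78. Where each had a multiple of 3 (11 genes), 2 were lower and 1 higher, with a median of -0.29. Without Vps13a and Exoc5, 10 of 23 genes with a lower exon were lower in level. The 14 genes include Vps13a and Exoc5, with 13 and 7 lower exons. A gene with more lower exons is likelier to have at least 1 whose length is not a multiple of 3. The split by length was not repeated without Vps13a and Exoc5, and no test of these counts was made.

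Fubp1 knockdown had 17 genes lower and 12 higher at FDR under 0.05 in the authors' deposited table, where 10.5% and 12% of all tested genes were. Snx10, at 11.75 RPKM in Fubp1 knockdown and 30.32 in siNT (log2 fold change -1.28), Ap1s3, at 13.57 and 34.05 RPKM (-1.21), and Exoc5, at 23.69 and 43.2 RPKM (-1.10), were the lowest in the authors' deposited table. Vps54 was lower (-0.95), and Snx29 (1.00), Ap3m2 (0.88), Snx32 (0.72) and Vps13d (0.70) were higher there. Khsrp knockdown had 8 genes lower and 5 higher in the authors' deposited table, where 4.34% and 3.82% of all tested genes were. Snx2 (log2 fold change -0.70), Eea1 (-0.64), Exoc5 (-0.63), Snx4 (-0.60), Ap1g1 (-0.51) and Vps33a of HOPS and CORVET (-0.45) were lower and Snx12 (0.66) and Snx11 (0.62) higher there.

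Rbm38 knockdown had 7 genes lower and 10 higher in the authors' deposited table, where 7.02% and 7.96% of all tested genes were. Ap1s3 was at 11.1 RPKM in Rbm38 knockdown and 34.05 in siNT (log2 fold change -1.26) in the authors' deposited table, and the retromer subunit Vps26b was at 10.02 and 19.47 RPKM (-0.97). Vps54 (-0.70) and Vps13a (-0.68) were also lower there. Ap1s2 was at 110.24 RPKM in Rbm38 knockdown and 68.49 in siNT (0.94) in the authors' deposited table, and Snx29 (0.76), Snx32 (0.68) and Snx9, which acts with dynamin in endocytosis (0.61), were higher. All 4 comparisons share the siNT libraries.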

How the data were processed

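RNA-seq libraries of N2A cells (11 in all) were grouped by their descriptions. The authors deposited, per library, PSI in percent with corrected inclusion and exclusion reads in the layout of vast-tools, and a PSI score per group with True or False calls of unstated criterion. Gene levels came as 1 RPKM value per group with the authors' log2 fold changes, p-values and FDR, so the planned edgeR and limma fits of levels could not be run. Salmon 0.14.1, edgeR and mm10 are named per the submitters' processing notes, and the event coordinates are of a build not given in the sources used here.

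Events with at least 10 reads in every library and a mean PSI of 1 to 99 (60137 events) were fitted in limma 3.58.1 (R 4.3.3): log2((inclusion + 0.5)/(exclusion + 0.5)) of the reads, 1 mean per group over all 11 libraries, weights from the binomial variance plus a between-library variance of 0.146, and empirical Bayes moderation with a trend. Calls required a Benjamini-Hochberg adjusted p under 0.05 over all tested events and a difference of 10 points of mean PSI. Without molecular identifiers in the reads, depth speaks for counting error alone. The fit was checked on simulated reads. Exons were placed on GENCODE vM21 by gene, exon length and flanking intron lengths (229 of 264 exons, 204 by both introns).

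Named were all tested microexons, the 24 called exons and 6 other events of largest difference, and up to 8 genes per knockdown past FDR 0.05 with at least 1 RPKM, by fold change. Genes and lists were chosen with earlier results of these data known.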

Additional observations from a re-analysis of the deposited data

How the results depend on the processing

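The calls in Fubp1 knockdown depended on the fit. Against 5 exons of these genes called in limma, there were 1 without weights, 11 with binomial weights alone, 12 with a pseudocount of 1, 2 with the library number sets, 2 with the replicate block, 0 to 3 without 1 library and 35 by the authors' calls. In Khsrp knockdown 0 became 3 with binomial weights alone, 3 with a pseudocount of 1, 1 with the trend taken on the binomial variance (added after seeing the data) and 12 by the authors' calls. In Rbm38 knockdown 0 became 3, 1, 3 and 8 under the same settings, and 1 with no filter on mean PSI. In the double knockdown 65 became 26 with the library number sets, 61 with the replicate block, 48 to 60 without 1 library and 110 by the authors' calls. The cause of these differences was not tested. The library number sets leave siNT C as the only control of Khsrp, double and Rbm38 knockdown. Replicate letters did not pair the libraries (the differences of A from B had correlations of -0.062 to 0.058 between groups). At FDR under 0.01 instead of 0.05, 7 of 13 genes in Khsrp knockdown and 10 of 17 in Rbm38 knockdown were past the threshold. No result changed direction under the alternatives run. Between 2 libraries of a group, 13% to 20.1% of events differed at a chi-square p under 0.05, where counting error alone would give a share near 0.05. Each knockdown has 2 libraries, and depth limits what can be shown for Vps13a and the introns.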

Other observations

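A further 243 genes came from lists of endosomal traffic and a list of 12 regulators of neuronal microexons, which leave out the genes described above. Of these, 236 were tested in the authors' deposited table. At FDR under 0.05 the authors' deposited table had 29 lower and 38 higher in Fubp1 knockdown, 14 and 11 in Khsrp knockdown, 48 and 46 under double knockdown and 19 and 31 in Rbm38 knockdown. Over all genes of the authors' deposited table the shares lower and higher were 10.5% and 12% in Fubp1 knockdown, 4.34% and 3.82% in Khsrp knockdown, 13.7% and 13.2% under double knockdown and 7.02% and 7.96% in Rbm38 knockdown. The genes of largest change in the double knockdown were the splicing regulator Rbfox1 (log2 fold change -3.02), Dnajc6, which encodes the clathrin uncoating factor auxilin (-1.76), and the cargo receptor Lrp8 (-1.50), all in the authors' deposited table. In Fubp1 knockdown they were Rbfox1 (-2.17), the actin capping subunit Capza1 (-1.64) and the receptor Lrp1 (1.56) in the authors' deposited table. In Khsrp knockdown they were the SNARE Vamp8 (1.34), Pacsin3 (1.03) and the splicing regulator Ptbp2 (-0.94), and in Rbm38 knockdown Vamp8 (1.56), Bloc1s6 (-1.48) and Mvb12b (1.26), in the authors' deposited table.

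Of the 12 regulators of neuronal microexons, 3 were lower and 3 higher in Fubp1 knockdown and 2 and 0 in Khsrp knockdown in the authors' deposited table. In the double knockdown 5 were lower and 0 higher there, and in Rbm38 knockdown 4 and 1. In the same order the shares of all tested genes were 10.5% and 12%, 4.34% and 3.82%, 13.7% and 13.2%, and 7.02% and 7.96%. Those lower in the double knockdown were Rbfox1 (log2 fold change -3.02), Ptbp2 (-1.34), Rnps1 (-0.57), Srrm4 (-0.56) and Nova1 (-0.48) in the authors' deposited table. Those lower in Rbm38 knockdown were Qk, Ptbp1, Rnps1 and Ptbp2, and Rbfox2 was higher. The counts do not separate genes that promote microexon inclusion from genes that repress it. Of 489 tested exons of the listed genes, 62 were called lower and 23 higher in the double knockdown in limma, where 11.4% and 3.46% of all tested exons were. In Fubp1 knockdown 5 were called lower and 0 higher, where 0.727% and 0.164% of all tested exons were. The clathrin coat and uncoating list held 15 of the 62, out of 129 tested exons, and the list of SNAREs held 11 of 73, beside the 11.4% of all tested exons.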
